A study of Mus musculus with 30 samples.

Results

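The genes described here are 33 mouse genes of cholesterol and fatty acid synthesis that are known targets or regulators of the SREBP transcription factors. They were chosen by name, with earlier results of these data known. All 33 were listed among the 31854 genes of the CALM/AF10 time course, the 34406 genes of the granulocyte-macrophage progenitor (GMP) time course and the 32527 genes of the leukemia line libraries. By role, 7 act in the mevalonate pathway, 11 turn farnesyl units into cholesterol by way of squalene, 5 control SREBP, 1 moves sterol between membranes, 4 build fatty acids and 5 lengthen or desaturate them. The 7 mevalonate and 11 later genes are called the sterol steps below (18 genes), and the last 2 groups the fatty acid steps (9 genes). All 33 passed the filter on low values in each fit, which was a TPM (transcripts in a library of fixed size, corrected for length) of 1 or more in at least 3 of the fitted samples. Scd1 passed it in GMP through the treated samples alone, where it is high, since its 3 values at 0 h were below 1.

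RNA sequencing was done on 30 samples in 10 groups of 3, all of the C57BL/6 strain. CALM/AF10 cells, an acute myeloid leukemia (AML) line that carries a fusion of the CALM and AF10 genes, and normal bone marrow GMP were each sampled at 0 h, before treatment, and at 6 h and 10 h of RG3039, an inhibitor of the mRNA scavenger decapping enzyme Dcps, at 1 µM per the column headers. The other 12 samples are 2 CALM/AF10 lines and 2 AML lines that carry the MLL/AF9 fusion, without a drug time in their labels. No untreated sample was taken at 6 h or 10 h, so an effect of the drug and one of the hours in culture cannot be told apart. Separate cultures or animals for the 3 samples of a group are not stated, nor how the fusions were introduced or which CALM/AF10 line was used in the time course. The p-values then measure only the spread between these samples, which may be technical. The samples of a time-course group are called a, b and c here, as their columns carry no replicate number.

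Mammalian cells make cholesterol from acetyl-CoA through mevalonate, isoprenoid units, squalene and lanosterol, and make fatty acids from the same acetyl-CoA through malonyl-CoA. SREBP proteins are held in the endoplasmic reticulum membrane by SCAP and the INSIG proteins when sterol is plentiful. When sterol runs low, SCAP carries them to the Golgi, where proteases free the part that enters the nucleus, binds sterol regulatory elements and, mostly together with NF-Y and SP1, turns on the genes of both pathways. SREBP2, encoded by Srebf2, acts mainly on cholesterol genes, and SREBP1c, 1 product of Srebf1, mainly on fatty acid genes. Srebf2 and Insig1 are themselves targets, so their mRNA is often read beside that of the enzymes.

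Promoter sequence was matched from RefSeq (GRCm38.p6, 250 bases before to 50 bases after the start) for 26 of the 33 genes, and for none of Fdps, Fdft1, Sqle, Stard4, Fads1, Scd1 and Scd2. These genes have 34 windows, as 5 of them have more than 1 start, and a gene is counted below where any of its windows holds the letters, and the shares of all genes were counted the same way. The letters TCACNCCAC, a form of the sterol regulatory element, were found on either strand in 1 of the 26 genes, Hmgcs1, against 1.436% of all 27025 genes. The shorter CACCCCAC, which overlaps the former when N is C, was found in 2 genes, Hmgcs1 and Acat2, against 3.297%. The letters CCAAT, which NF-Y binds, were found in 21 of 26 genes (80.77%) and in 22 of their 34 windows, against 41.06% of all genes and 43.23% of genes tested in GMP. By pathway, CCAAT stood in 14 of 15 sterol steps and in 3 of 6 fatty acid steps, so fatty acid genes without a window are left out. The only Acaca window (chr11:84195188-84195487, plus strand) lies inside the gene, whose annotated start is at 84129672. The lack of CCAAT there does not cover the region before that start. The SP1 letters GGGCGG were in 22 of 26 genes (84.62%), against 38.2% of all genes and 66.41% of those of genes tested in GMP, and the E-box CACGTG in 5 (19.23%), against 8.093% and 12.04%. A match is a description of the letters and not of a site in use.

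Stretches around the start of 6 genes are shown because these are the genes on which the results below turn: Hmgcs1 has the sterol regulatory letters, Idi1 and Lss had the largest rises in GMP at 6 h among the sterol steps on the log2(TPM + 1) scale, and Mvd, Fasn and Elovl6 hold the splice junctions given further on. Each runs 5′ to 3′ on the gene's strand from 110 bases before to 20 bases after the start, except Hmgcs1 from 152 bases before. Capitals mark TCACNCCAC, CACCCCAC or CCAAT on either strand, and Elovl6 has none of them in the stretch or in its whole window.
Hmgcs1 (chr13:119690199-119690370, plus strand): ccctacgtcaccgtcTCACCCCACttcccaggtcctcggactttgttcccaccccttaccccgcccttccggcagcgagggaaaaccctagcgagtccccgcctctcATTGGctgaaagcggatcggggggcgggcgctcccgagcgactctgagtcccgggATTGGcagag
Idi1 (chr13:8885496-8885625, plus strand): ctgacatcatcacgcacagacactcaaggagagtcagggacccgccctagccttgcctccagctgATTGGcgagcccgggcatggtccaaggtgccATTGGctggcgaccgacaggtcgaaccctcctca
Lss (chr10:76531495-76531624, plus strand): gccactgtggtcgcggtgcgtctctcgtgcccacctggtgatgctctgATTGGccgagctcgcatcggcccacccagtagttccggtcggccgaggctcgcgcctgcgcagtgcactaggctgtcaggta
Mvd (chr8:122443403-122443532, minus strand): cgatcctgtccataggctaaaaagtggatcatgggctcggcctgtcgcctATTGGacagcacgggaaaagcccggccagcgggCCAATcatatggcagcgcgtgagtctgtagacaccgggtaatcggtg
Fasn (chr11:120824528-120824657, minus strand): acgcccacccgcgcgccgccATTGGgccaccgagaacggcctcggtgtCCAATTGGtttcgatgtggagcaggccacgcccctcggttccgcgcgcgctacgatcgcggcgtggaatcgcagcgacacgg
Elovl6 (chr3:129532276-129532405, plus strand): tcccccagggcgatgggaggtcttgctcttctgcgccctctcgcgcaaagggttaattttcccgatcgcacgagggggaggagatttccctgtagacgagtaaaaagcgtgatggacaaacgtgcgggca

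The time-course tables give TPM only, so the depth of those libraries is unknown. The line libraries held 8739673 to 25194822 estimated reads. Within each time-course group the mean Spearman correlation of a sample with the other 2 was 0.942 to 0.962, lowest for GMP 6 h sample c. All 13 GMP markers were detected in both cell types. Their summed level was 6882 to 7388 TPM in untreated CALM/AF10 cells and 21250 to 22170 TPM in untreated GMP. Elane, a granule gene among them, was at 3248 ± 165 and 6761 ± 496 TPM (SD, n = 3). Mpo, another granule gene, was at 15.3 TPM ± 2.56 in untreated CALM/AF10 cells and at 7877 ± 182 in untreated GMP. In the 2 CALM/AF10 lines Mpo was listed at 1919 ± 42.3 and 2049 ± 77.2 TPM, in tables normalised separately, so the time-course cells stand apart from both lines in this gene. The leukemia gene Hoxa9 was at 186.9 ± 7.45 TPM in untreated CALM/AF10 cells of the time course and at 34.95 ± 1.52 TPM in untreated GMP. In bulk RNA, fewer cells of a type and less RNA per cell cannot be told apart.

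In GMP nearly all 33 genes rose within 6 h of RG3039, by a median of 1.85 on the log2 scale, and in CALM/AF10 cells none rose at 6 h and 15 rose by small amounts at 10 h. Changes are from limma on log2(TPM + 1), fitted over all genes of a cell type with Benjamini-Hochberg adjustment and a threshold of 0.05, and this scale understates the change of genes with few TPM. In GMP 31 of 33 genes rose at 6 h and none fell (30 of 32 without Scd1), where 24.1% of the 14246 genes tested rose and 44% changed either way. At 10 h 32 of 33 rose (31 of 32 without Scd1), against 23.7% of genes tested, with 45.1% changed either way. Among CALM/AF10 samples 0 of 33 rose and 3 fell at 6 h, where 5.44% and 7.14% of 12815 genes tested did, and 2 genes were higher and 10 lower at an unadjusted p under 0.05. At 10 h 15 of 33 had risen against 0 h and none had fallen, against 10.5% and 8.64% of genes tested, and 9 of these 15 passed in all 16 alternatives, with Scd1 not tested in the fit limited to a mean TPM of 5 or more and past the threshold in the others. Leaving out 1 sample gave 1 to 5 calls at 6 h in CALM/AF10 cells, with 1 without 0 h b or 6 h c and 5 without 10 h c. The median change of all genes tested was between -0.03 and 0.03 in each of these comparisons.

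The values of the single samples show the same split. The 3 samples at 6 h did not overlap those at 0 h for 31 genes in GMP, all higher, where 27.5% of genes tested were higher and 24.4% lower without overlap. In CALM/AF10 cells 3 genes were higher and 11 lower without overlap at 6 h, against 14% and 19.6% of genes tested. At 10 h 32 genes in GMP and 18 in CALM/AF10 cells were higher without overlap, against 28.2% and 19.9%. Scd1 is among these GMP genes at both times. The ratio of mean TPM to that at 0 h had a median over the 33 genes of 4.10 at 6 h and 5.46 at 10 h in GMP, and of 0.94 and 1.18 in CALM/AF10 cells. The highest ratios were those of Lss in GMP, 11.04 and 16.6, and of Scd1 in CALM/AF10 cells at 10 h, 1.93.

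**Figure D1:**
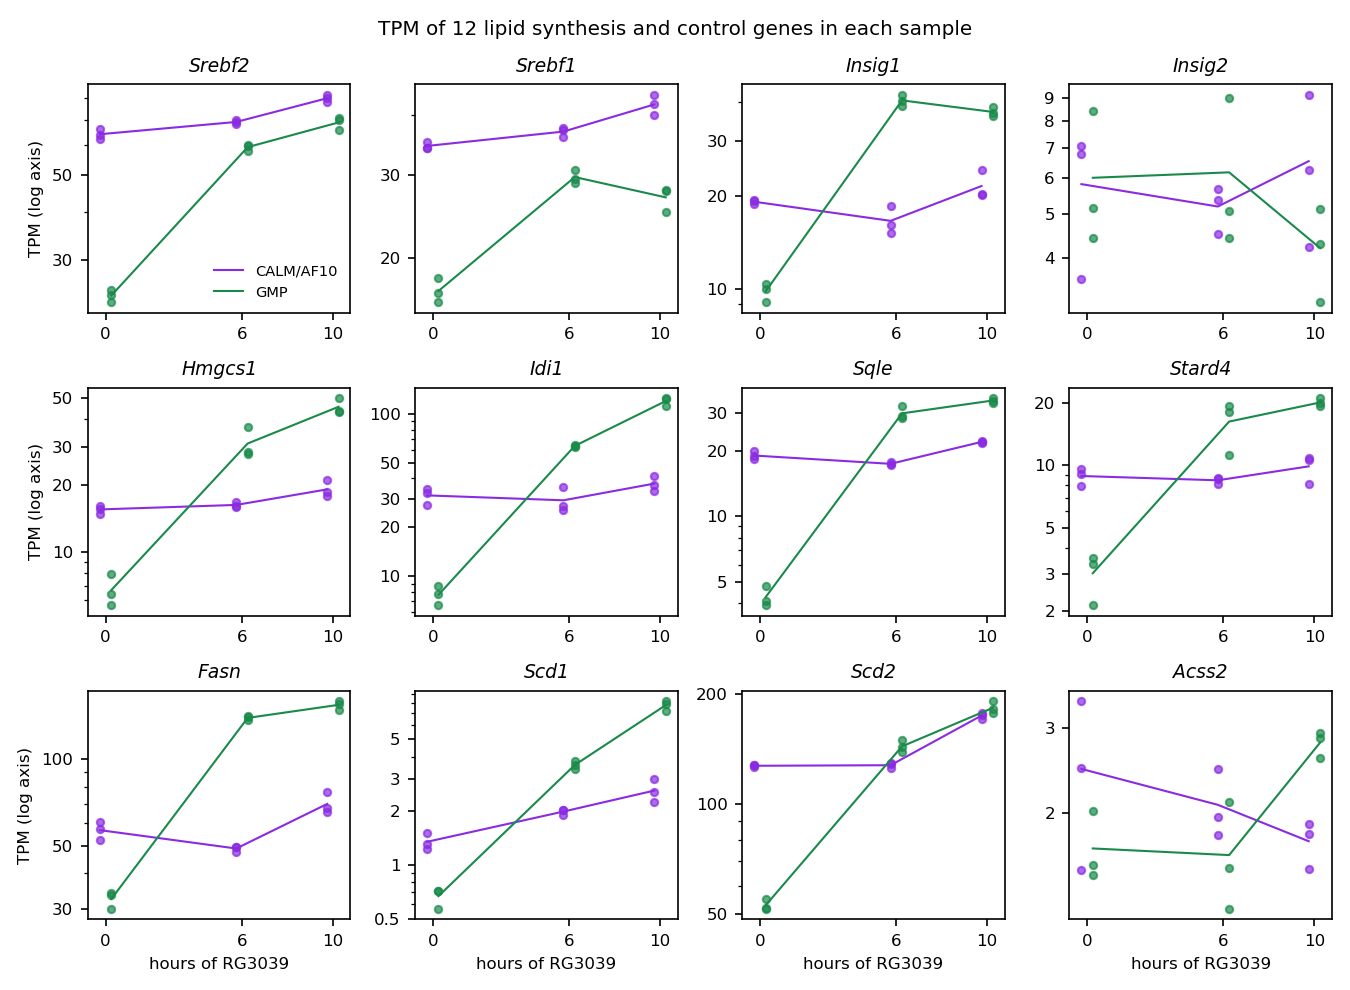
TPM (log axis) of 12 of the 33 genes in each sample at 0, 6 and 10 h of RG3039, with CALM/AF10 cells and GMP in separate colours, points for samples and lines through group means. Srebf2, Hmgcs1, Idi1, Sqle, Fasn and Scd2 start lower in GMP and rise steeply by 6 h, and the CALM/AF10 lines stay nearly flat to 6 h; Insig2 and Acss2 show no such rise at 6 h in either.

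Of the control genes, Srebf2, which encodes SREBP2, was at 24.3, 23.2 and 25.0 TPM at 0 h in GMP. Its 6 h values were 57.9, 59.8 and 60.3 TPM, and its 10 h values were 70.1, 70.6 and 65.9 TPM. It rose by 1.26 ± 0.05 (log2, SE; adjusted p = 3.31e-07) at 6 h and by 1.47 ± 0.05 (adjusted p = 9.87e-08) at 10 h. Srebf2 in CALM/AF10 cells was at 62.2, 64.0 and 66.2 TPM at 0 h. At 6 h it was at 69.8, 69.0 and 68.4 TPM, and its 10 h values were 81.4, 79.8 and 78.0 TPM. Its 3 groups did not overlap there either, and the change from 0 h was 0.11 ± 0.04 at 6 h (adjusted p = 0.121), not past the threshold, and 0.31 ± 0.04 at 10 h (adjusted p = 0.000718), a rise.

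Srebf1, which encodes SREBP1a and SREBP1c, was at 18.2, 16.9 and 16.2 TPM at 0 h in GMP. By 6 h its samples were at 30.7, 28.9 and 29.4 TPM, and its 10 h values were 27.9, 27.7 and 25.1 TPM. All treated samples were above all untreated ones, and the rise was 0.76 ± 0.07 at 6 h (adjusted p = 3.26e-05) and 0.63 ± 0.07 at 10 h (adjusted p = 9.58e-05). Srebf1 in CALM/AF10 cells was at 34.2, 34.2 and 35.1 TPM at 0 h. The 6 h samples were at 37.7, 37.3 and 36.0 TPM, and its 10 h values were 44.2, 42.3 and 40.1 TPM, and it rose by 0.28 ± 0.05 at 10 h (adjusted p = 0.00322). The products of the gene were not told apart in these tables.

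Insig1, the SREBP target that retains SCAP, was at 10.4, 9.10 and 10.0 TPM at 0 h in GMP. After 6 h it stood at 38.8, 40.3 and 42.1 TPM, and its 10 h values were 36.9, 38.4 and 36.1 TPM. It rose by 1.93 ± 0.07 (adjusted p = 7.90e-08) at 6 h. Insig1 in CALM/AF10 cells was at 19.3, 18.8 and 19.2 TPM at 0 h. With 6 h of drug it was at 16.0, 18.6 and 15.2 TPM, and its 10 h values were 20.1, 24.1 and 20.2 TPM, and neither change from 0 h passed the test (-0.20 ± 0.09 at 6 h, adjusted p = 0.186, and 0.15 ± 0.09 at 10 h, adjusted p = 0.259).

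Insig2, the second retention protein, did not move with the others. It was at 5.16, 8.43 and 4.42 TPM at 0 h in GMP. Its 6 h values were 5.07, 4.42 and 9.02 TPM, and its 10 h values were 4.28, 5.12 and 3.18 TPM, with overlapping groups and changes of 0.02 ± 0.28 and -0.41 ± 0.28 (adjusted p = 0.956 and 0.258). The 9 values of Insig2 in CALM/AF10 cells ran from 3.59 to 9.16 TPM, also with overlap at each time. Its spread within groups was the widest of the control genes, and a change smaller than this spread would not have been detectable. Scap, the sterol sensor that escorts SREBP, rose in GMP by 0.38 ± 0.08 at 6 h (adjusted p = 0.00363) and by 0.24 ± 0.08 at 10 h (adjusted p = 0.0312), a call at 10 h that was lost in 4 of 9 fits without 1 sample (adjusted p = 0.0942, 0.0571, 0.0991 and 0.0543 without 0 h a, 0 h b, 10 h a and 10 h c). Scap in CALM/AF10 cells did not pass at 6 h (-0.08 ± 0.07, adjusted p = 0.545) or at 10 h (-0.02 ± 0.07, adjusted p = 0.894).

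All 7 mevalonate genes rose in GMP at both times, by a median of 2.06 at 6 h and 2.74 at 10 h on the log2 scale. Hmgcs1, which makes HMG-CoA, was at 5.69, 6.44 and 7.93 TPM at 0 h. At 6 h it was at 36.7, 27.8 and 28.4 TPM, and its 10 h values were 43.7, 43.1 and 49.9 TPM. This was a rise of 2.06 ± 0.13 (adjusted p = 4.57e-06) and of 2.60 ± 0.13 (adjusted p = 8.56e-07). Idi1, the isomerase that makes dimethylallyl diphosphate, went from 7.73, 8.70 and 6.61 TPM to 63.8, 64.5 and 62.1 TPM at 6 h and to 123, 112 and 125 TPM at 10 h. Its rise of 3.80 ± 0.09 at 10 h (adjusted p = 7.33e-09) was the largest of the 33 genes on the log2(TPM + 1) scale, while by ratio of mean TPM Lss was above it, 16.6 against 15.6. Mvd, the decarboxylase that makes isopentenyl diphosphate, went from 4.997, 5.48 and 4.55 TPM to 34.7, 35.1 and 37.2 TPM and then to 64.8, 68.4 and 67.3 TPM. Fdps, which joins isoprenoid units to farnesyl diphosphate and had the highest level of the mevalonate genes, went from a mean of 34.8 ± 5.24 TPM to 168 ± 3.39 and 309.9 ± 3.30 TPM, a rise of 3.13 ± 0.09 at 10 h (adjusted p = 2.69e-08). Acat2, Mvk and Pmvk, the thiolase and both kinases, rose by 2.74, 2.35 and 1.79 at 10 h, each with an adjusted p of 3.59e-06 or less.

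The same 7 genes changed little in CALM/AF10 cells, by a median of 0.03 at 6 h and 0.35 at 10 h. Hmgcs1 was at 16.1, 15.7 and 14.9 TPM at 0 h. By 6 h its samples were at 16.2, 16.8 and 16.0 TPM, and its 10 h values were 18.6, 17.9 and 21.1 TPM. This was a rise of 0.28 ± 0.07 at 10 h (adjusted p = 0.0165, and 0.0643 without 0 h sample c). Idi1 was at 34.3, 32.6 and 27.4 TPM at 0 h. The 6 h samples were at 27.1, 25.7 and 35.2 TPM, and its 10 h values were 33.6, 36.5 and 41.5 TPM, with overlapping groups and 0.24 ± 0.13 at 10 h (adjusted p = 0.240). At 10 h 5 of the 7 genes had risen: Acat2 by 0.38, Mvk by 0.38, Mvd by 0.36, Fdps by 0.35 and Hmgcs1. The call of Mvd was lost without 0 h a (adjusted p = 0.0635), without 10 h a (0.0674) or without 10 h b (0.0796). Pmvk, the second kinase, fell at 6 h, from 20.4, 21.8 and 17.8 TPM to 15.0, 14.2 and 14.8 TPM, by 0.42 ± 0.10 (adjusted p = 0.0296), and stood at 20.5, 21.3 and 27.1 TPM at 10 h. This call was lost in each of the 5 fits without 0 h a, 0 h b, 6 h a, 6 h b or 6 h c (adjusted p = 0.0826, 0.1005, 0.0716, 0.0897 and 0.0755).

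The 11 genes from squalene to cholesterol rose in GMP without exception at 6 h and 10 h, by a median of 1.89 and 2.41. Sqle, the squalene epoxidase that sets the pace of the later steps, was at 4.80, 4.07 and 3.90 TPM at 0 h. After 6 h it stood at 32.2, 28.2 and 29.0 TPM, and its 10 h values were 35.0, 33.3 and 34.0 TPM. This was a rise of 2.55 ± 0.08 (adjusted p = 6.05e-08) at 6 h. Lss, which closes the sterol rings to lanosterol, went from 1.54, 1.14 and 2.03 TPM to 18.2, 15.6 and 18.2 TPM and to 28.6, 25.3 and 24.2 TPM. Cyp51 and Msmo1, which remove methyl groups from lanosterol, rose by 2.73 and 2.84 at 6 h and by 3.14 and 3.17 at 10 h. The smallest rise among the sterol steps was that of Ebp, the sterol isomerase, at 0.66 ± 0.09 (adjusted p = 0.000298) and 0.83 ± 0.09 (adjusted p = 6.87e-05). Tm7sf2, the sterol 14-reductase, rose by 0.94 ± 0.15 at 6 h and 1.67 ± 0.15 at 10 h. Dhcr7, the last reductase before cholesterol, rose by 1.23 and 1.69, Nsdhl by 1.54 and 2.41, Hsd17b7 by 1.85 and 2.10, Sc5d by 1.89 and 2.32, and Fdft1, the squalene synthase, by 2.48 and 2.63.

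In CALM/AF10 cells Nsdhl was the only gene of these 11 that passed the test at 6 h, and 3 passed at 10 h. Of all genes tested 7.14% fell at 6 h and 10.5% rose at 10 h. Without overlap with 0 h, Sqle, Lss, Tm7sf2, Nsdhl and Dhcr7 were lower at 6 h, as were 19.6% of genes tested. At 10 h Fdft1, Sqle, Cyp51, Hsd17b7 and Sc5d were higher without overlap, as were 19.9% of genes tested. The remaining genes of the group overlapped 0 h at each time. Nsdhl, a sterol dehydrogenase, was at 17.2, 16.5 and 15.2 TPM at 0 h. With 6 h of drug it was at 13.0, 12.3 and 13.2 TPM, and its 10 h values were 17.7, 17.0 and 18.2 TPM. It fell by 0.32 ± 0.06 at 6 h (adjusted p = 0.00939), a call that held in all 16 alternatives tried, and was at 0.11 ± 0.06 against 0 h at 10 h (adjusted p = 0.2497). Sqle was at 18.4, 19.9 and 18.9 TPM at 0 h. Its 6 h values were 17.2, 17.7 and 17.4 TPM, and its 10 h values were 21.7, 22.0 and 22.3 TPM. It was among the 3 genes of the group that had risen at 10 h, Sqle at 0.20 ± 0.05 (adjusted p = 0.0201), Cyp51 at 0.28 ± 0.06 (0.0132) and Sc5d at 0.28 ± 0.06 (0.00934). The call of Sqle was lost without 0 h a (adjusted p = 0.0681), 0 h c (0.0686) or 10 h b (0.0579), and that of Cyp51 without 10 h b (0.0517).

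Stard4, which carries cholesterol between membranes, was at 2.12, 3.37 and 3.61 TPM at 0 h in GMP. At 6 h it was at 11.2, 18.03 and 19.3 TPM, and its 10 h values were 20.999, 19.2 and 19.9 TPM. This was a rise of 2.08 ± 0.20 (adjusted p = 5.13e-05) and 2.40 ± 0.20 (adjusted p = 1.84e-05). GMP 6 h sample a was below the other 2 samples of its group. Stard4 in CALM/AF10 cells was at 9.08, 7.97 and 9.58 TPM at 0 h. By 6 h its samples were at 8.65, 8.60 and 8.15 TPM, and its 10 h values were 10.6, 8.14 and 10.9 TPM, with overlap throughout (0.13 ± 0.11 at 10 h, adjusted p = 0.440).

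**Figure D2:**
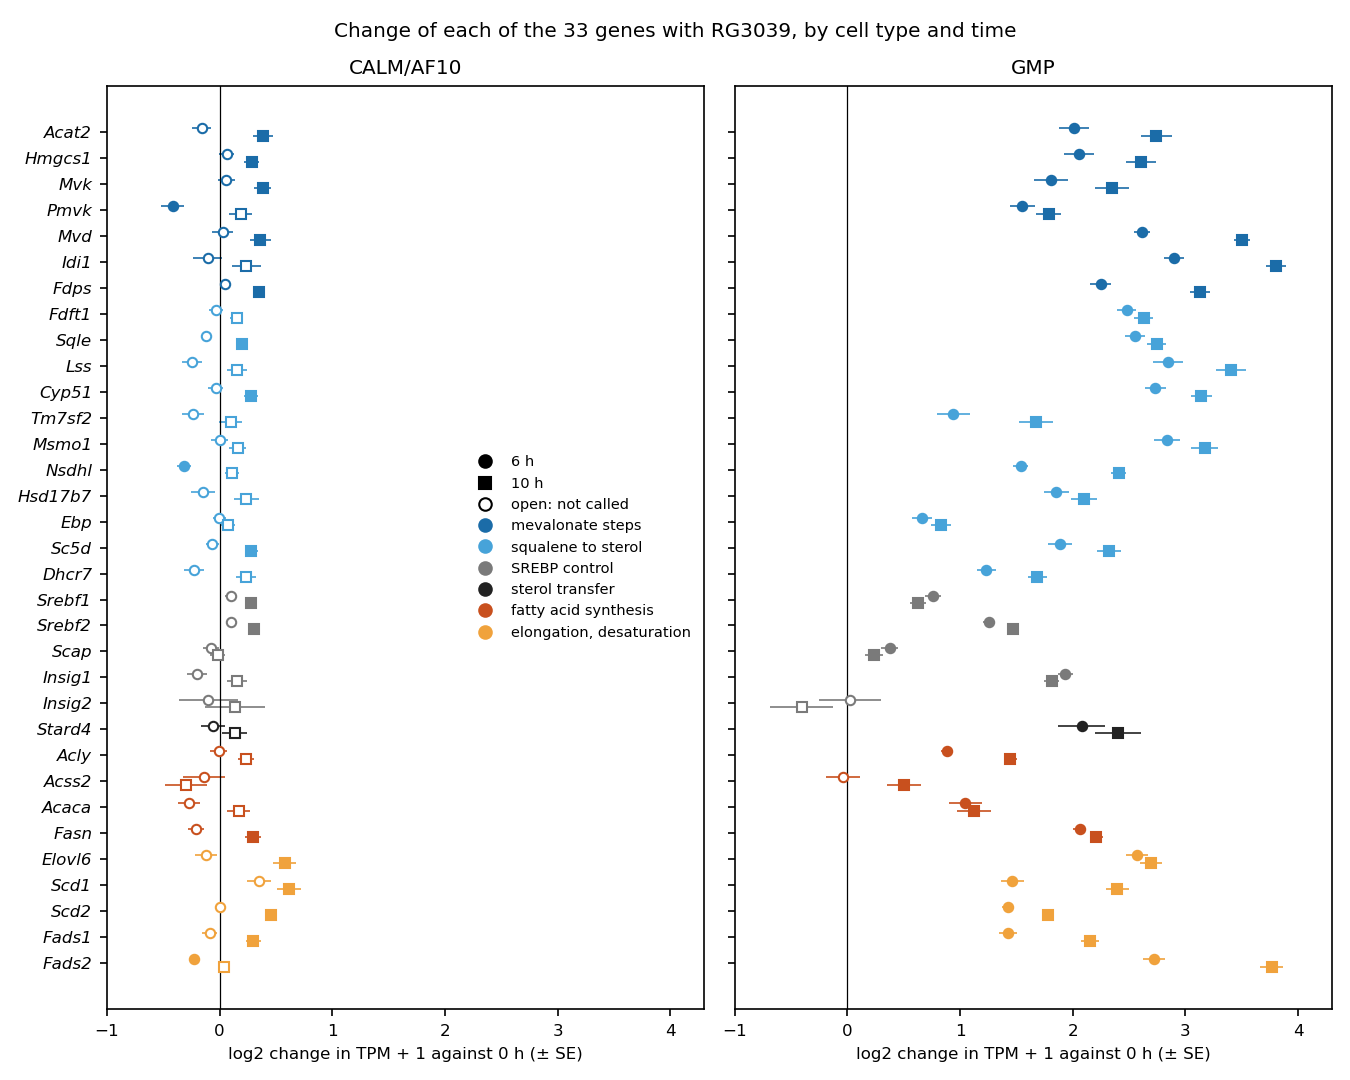
Log2 change in TPM + 1 (± SE) at 6 h and at 10 h against 0 h for each of the 33 genes, ordered by role, with CALM/AF10 cells on the left and GMP on the right, circles for 6 h and squares for 10 h; filled marks passed the test. GMP marks lie mostly between 1 and 4 and CALM/AF10 marks between -0.5 and 0.7, and Insig2 is the gene that passed at neither time in either cell type.

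The fatty acid steps rose in GMP as well, 8 of 9 at 6 h and 9 of 9 at 10 h with Scd1 counted. Their median with Scd1 counted was 1.43 and 2.15, where the sterol steps had 2.03 and 2.62. Scd1 lay above both fatty acid medians, and medians without Scd1 are not given here. Fasn, the fatty acid synthase, was at 33.5, 30.1 and 34.1 TPM at 0 h. The 6 h samples were at 141, 136 and 139.97 TPM, and its 10 h values were 159, 156 and 149 TPM. It rose by 2.06 ± 0.06 (adjusted p = 2.73e-08) and by 2.21 ± 0.06 (adjusted p = 1.43e-08). Acaca and Acly, which supply malonyl-CoA and acetyl-CoA, rose less, Acaca by 1.05 ± 0.15 and 1.12 ± 0.15, and Acly by 0.88 ± 0.06 and 1.45 ± 0.06. Acss2, which makes acetyl-CoA from acetate, was at 1.49, 1.56 and 2.02 TPM at 0 h. After 6 h it stood at 1.27, 1.54 and 2.11 TPM, and its 10 h values were 2.61, 2.92 and 2.87 TPM. It did not pass at 6 h (-0.04 ± 0.15, adjusted p = 0.867) and rose by 0.50 ± 0.15 at 10 h (adjusted p = 0.0222), which missed the threshold without 0 h a, 0 h b, 10 h b or 10 h c (adjusted p = 0.0704, 0.0599, 0.0665 and 0.0646).

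Elongation and desaturation genes rose in GMP at both times, all 5 of them with Scd1 counted. Scd1, a stearoyl-CoA desaturase, entered this fit through its treated samples only. It was listed low, at 0.717, 0.568 and 0.717 TPM at 0 h, 3.62, 3.41 and 3.77 TPM at 6 h and 7.90, 8.16 and 7.25 TPM at 10 h. Its estimates were 1.46 ± 0.10 and 2.39 ± 0.10, and its calls here are not taken as support. Scd2, the more abundant desaturase in these cells, was at 51.9, 55.0 and 52.1 TPM at 0 h. With 6 h of drug it was at 139, 144 and 150.1 TPM, and its 10 h values were 192, 182 and 178 TPM. It rose by 1.43 ± 0.05 and by 1.78 ± 0.05. Fads2, the delta-6 desaturase of polyunsaturated fatty acids, went from 9.67, 8.23 and 7.80 TPM to 59.6, 60.9 and 65.2 TPM and to 124, 147 and 116 TPM, a rise of 2.72 ± 0.10 and 3.76 ± 0.10. Elovl6, which lengthens palmitate to stearate, rose by 2.57 and 2.70, and Fads1, the delta-5 desaturase, by 1.43 and 2.15.

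In CALM/AF10 cells 5 of the 9 fatty acid steps and 8 of the 18 sterol steps had risen at 10 h. Scd2 had the smallest p-value there: it was at 127, 128 and 128 TPM at 0 h. Its 6 h values were 129, 129 and 126 TPM, and its 10 h values were 176, 178 and 171.4 TPM. The rise at 10 h was 0.45 ± 0.03 (adjusted p = 2.94e-05). Elovl6 was at 10.2, 11.2 and 9.97 TPM at 0 h. At 6 h it was at 9.41, 10.1 and 9.06 TPM, and its 10 h values were 13.9, 15.9 and 18.8 TPM. At 10 h it had risen by 0.58 ± 0.10 (adjusted p = 0.00370). Scd1 was at 1.22, 1.51 and 1.298 TPM at 0 h. By 6 h its samples were at 1.90, 2.02 and 2.02 TPM, and its 10 h values were 2.55, 2.24 and 2.99 TPM, with no overlap between its groups. Its change was 0.35 ± 0.11 at 6 h (adjusted p = 0.0642, and past the threshold at 0.0252 after centring each sample on its median) and a rise of 0.61 ± 0.11 at 10 h (adjusted p = 0.00372). Fads1 rose by 0.30 ± 0.07 at 10 h (adjusted p = 0.0127).

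Fasn in CALM/AF10 cells was at 52.1, 60.5 and 57.1 TPM at 0 h. The 6 h samples were at 49.5, 49.4 and 47.6 TPM, and its 10 h values were 65.4, 67.3 and 76.7 TPM, lowest at 6 h without overlap. Its change was -0.21 ± 0.07 at 6 h (adjusted p = 0.0949, and 0.0449 without 10 h sample c) and it had risen by 0.30 ± 0.07 at 10 h (adjusted p = 0.0173, and 0.0567 without 0 h sample a). Fads2 was at 56.6, 56.4 and 52.8 TPM at 0 h. After 6 h it stood at 48.3, 47.5 and 45.8 TPM, and its 10 h values were 58.9, 55.8 and 55.5 TPM. It fell by 0.22 ± 0.05 at 6 h (adjusted p = 0.0133), which was lost without 0 h b (0.0524), without 6 h c (0.0555) and after median centring (0.0569). Acss2 was at 1.52, 3.41 and 2.48 TPM at 0 h, 1.96, 2.47 and 1.80 TPM at 6 h and 1.53, 1.90 and 1.81 TPM at 10 h, with overlapping groups and -0.30 ± 0.19 at 10 h (adjusted p = 0.305).

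Between 6 h and 10 h, 15 of the 33 genes rose in CALM/AF10 cells, where 2.18% of genes tested rose and 2.93% changed either way. In GMP 17 rose (16 of 32 without Scd1), where 3.21% did and 7.08% changed either way. None of the 33 fell in either, against 0.749% and 3.87% of genes tested. Without overlap, 26 genes were higher in CALM/AF10 cells (16.5% of genes tested, with 7.82% lower) and 26 higher and 2 lower in GMP (14.4% and 17.1%). The sterol and fatty acid steps had like medians, 0.33 and 0.39 in CALM/AF10 cells and 0.50 and 0.54 in GMP (with Scd1 counted), while the median over all genes tested was 0.03 and -0.02. In CALM/AF10 cells Elovl6 rose by 0.70 ± 0.10, Pmvk by 0.60 ± 0.10, Acat2 by 0.54 ± 0.09 and Fasn by 0.50 ± 0.07 over these hours.

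In GMP the genes divided over the same hours. Fads2 rose by a further 1.04 ± 0.10, Idi1 by 0.90 ± 0.09, Mvd by 0.89 ± 0.07, Fdps by 0.88 ± 0.09 and Nsdhl by 0.87 ± 0.07. Scd1, tested in GMP through its treated samples alone, was at 0.93 ± 0.10. No further rise passed the test for Fasn (0.15 ± 0.06, adjusted p = 0.159), Sqle (0.19 ± 0.08, 0.214), Fdft1 (0.15 ± 0.09, 0.341), Elovl6 (0.13 ± 0.09, 0.476), Acaca (0.07 ± 0.15, 0.814) or Stard4 (0.32 ± 0.20, 0.392). Insig1 (-0.12 ± 0.07, 0.334) and Srebf1 (-0.14 ± 0.07, 0.277) had negative estimates. These counts rested on few samples: without 1 sample they ran from 2 to 14 in CALM/AF10 cells, with 2 without 6 h a or 6 h c and 5 without 6 h b, and from 9 to 18 in GMP, with 11 without 6 h a, 10 without 6 h b or 10 h a and 9 without 10 h b or 10 h c. Scd2 was the only gene of the 15 in CALM/AF10 cells that passed in every alternative, and Mvd, Idi1, Fdps, Nsdhl, Acly, Scd2, Fads1 and Fads2 did so in GMP, where Scd1 passed in every alternative that tested it.

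**Figure D3:**
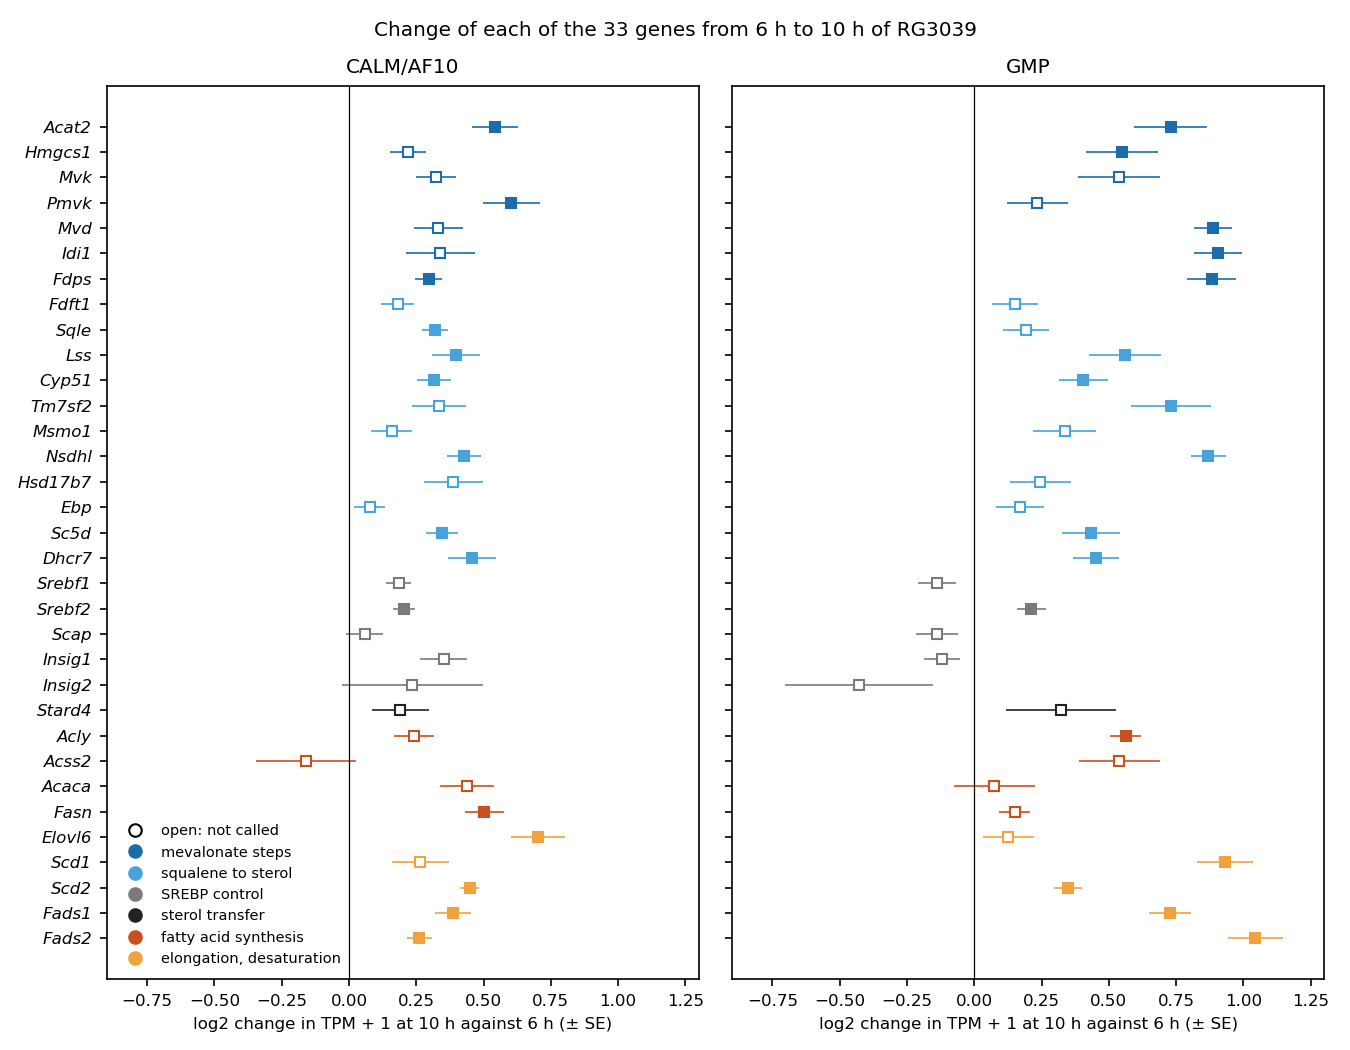
Log2 change in TPM + 1 (± SE) at 10 h against 6 h for each of the 33 genes, ordered and coloured by role, with CALM/AF10 cells on the left and GMP on the right; filled marks passed the test. In GMP, Mvd, Idi1, Fdps, Nsdhl, Scd1 and Fads2 lie near 0.9 to 1.0 and Fdft1, Sqle, Fasn and Elovl6 near 0.2, and in CALM/AF10 cells nearly all 33 lie between 0 and 0.7.

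The change from 0 h differed between the cell types for 31 of 33 genes at 6 h and for 31 at 10 h, always lower in CALM/AF10 cells. This was tested as an interaction in 1 fit over all 18 samples, in which 22.2% of 14044 genes tested were lower at 6 h and 20.2% at 10 h, and 38.5% and 38.7% differed either way. At 6 h the largest differences were those of Lss (-3.09 ± 0.16), Idi1 (-3.004 ± 0.17) and Fads2 (-2.94 ± 0.11), and at 10 h those of Fads2 (-3.73 ± 0.11), Idi1 (-3.57 ± 0.17) and Lss (-3.25 ± 0.16), each with an adjusted p of 1.50e-09 or less. All 18 sterol steps differed at both times, by a median of -2.09 and -2.34, and 8 and then 9 of 9 fatty acid steps, by a median of -1.42 and -1.78. Insig2 did not pass at either time (adjusted p = 0.846 and 0.321), Acss2 not at 6 h (-0.10 ± 0.24, 0.770) and Scap not at 10 h (-0.26 ± 0.10, 0.0628, and past the threshold at 0.0216 without CALM/AF10 0 h a and 0.0275 without GMP 10 h b). Comparisons of 6 h and of 10 h share the 0 h samples, so they are not separate evidence. Over the same hours the summed level of the 13 GMP markers went from 21250 to 22170 TPM at 0 h to 11180 to 11810 TPM at 10 h in GMP, and Mpo from 7877 ± 182 to 3273 ± 179 TPM; the part of this in the changes above was not tested.

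Before treatment 30 of the 33 genes were listed at a lower mean TPM in GMP than in CALM/AF10 cells, and at 10 h 30 were listed higher in GMP. The tables were normalised separately, so these levels stand side by side without a test. All 18 sterol steps were among both sets of 30. For Idi1 the means were 31.5 ± 3.62 TPM in CALM/AF10 cells and 7.68 ± 1.05 TPM in GMP at 0 h, and 37.2 ± 4.02 and 119.8 ± 7.19 TPM at 10 h. For Sqle they were 19.1 ± 0.79 and 4.25 ± 0.48 TPM at 0 h, and 22.0 ± 0.32 and 34.1 ± 0.83 TPM at 10 h. Among fatty acid steps Fads2 was at 0 h at 55.3 ± 2.11 against 8.57 ± 0.98 TPM, and was at 56.8 ± 1.89 and 129 ± 16.2 TPM at 10 h. The exceptions at 0 h were Scap, Insig2 and Acaca, and at 10 h Srebf1, Srebf2 and Insig2. Both transcription factor genes thus remained listed higher in CALM/AF10 cells at 10 h, Srebf2 at 79.7 ± 1.66 against 68.9 ± 2.58 TPM and Srebf1 at 42.2 ± 2.03 against 26.9 ± 1.59 TPM, while most of the enzymes were listed higher in GMP.

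Other genes of the same pathways were followed in 3 lists. Of 14 further isoprenoid and sterol genes, 6 rose and 1 fell in GMP at 6 h and 4 rose and 1 fell at 10 h, where 24.1% and 23.7% of genes tested rose and 19.9% and 21.5% fell. In CALM/AF10 cells 1 fell and none rose at either time, where 7.14% and 8.64% of genes tested fell. Nus1, a subunit of the enzyme that makes dolichol chains, went from 6.06 ± 0.683 TPM to 10.8 ± 0.268 TPM at 6 h and 10.2 ± 0.785 TPM at 10 h in GMP, by 0.74 ± 0.10 and 0.67 ± 0.10. Its catalytic partner Dhdds fell there by 0.44 ± 0.08 and 0.62 ± 0.08. Rabggtb, a subunit of the enzyme that attaches geranylgeranyl groups to Rab proteins, was the gene that fell in CALM/AF10 cells, by 0.33 ± 0.07 at 6 h (adjusted p = 0.0154) and 0.30 ± 0.07 at 10 h (adjusted p = 0.0148). Of 15 tested genes of SREBP processing and sterol handling, 2 rose and 4 fell in GMP at 6 h and 3 rose and 4 fell at 10 h, shares near those of all genes (24.1% and 19.9% at 6 h, 23.7% and 21.5% at 10 h). Npc1, which moves cholesterol out of lysosomes, rose by 0.59 ± 0.09 at 6 h and 0.39 ± 0.09 at 10 h, whereas Abcg1, a sterol exporter, fell by 1.75 ± 0.12 and 1.93 ± 0.12 and Mylip, a ubiquitin ligase induced by sterol, fell by 1.44 ± 0.14 and 1.58 ± 0.14. Abcg1 passed the filter through its 0 h samples (5.54 to 5.87 TPM, and at most 1.12 TPM at 6 h and 0.854 TPM at 10 h). Its calls in GMP are not taken as support. Mbtps2, the protease that makes the last cut in SREBP, rose in CALM/AF10 cells by 0.51 ± 0.12 at 6 h (adjusted p = 0.0200) and 0.57 ± 0.12 at 10 h (adjusted p = 0.00868). It rose in GMP too, by 0.57 ± 0.11 (adjusted p = 0.00232) and 0.38 ± 0.11 (adjusted p = 0.0171). Npc2 and Nr1h2 of this list also rose in CALM/AF10 cells at 10 h, where 10.5% of genes tested rose. Npc2 rose by 0.17 ± 0.05 (adjusted p = 0.0430) and Nr1h2 by 0.17 ± 0.05 (adjusted p = 0.0488). In GMP Nr1h2 was at 91.7 ± 10.7 TPM at 0 h and 70.6 ± 6.98 TPM at 10 h.

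Of 23 tested genes of other fatty acid and lipid synthesis, 15 rose and 2 fell in GMP at 6 h, where 24.1% and 19.9% of genes tested did, and 13 rose and 2 fell at 10 h. Me1 (at most 0.0207 TPM at 0 h) and Fads3 (at most 0.867 TPM at 0 h) passed the filter in GMP through treated samples alone. Any rise of theirs in these GMP counts is not taken as support. Slc25a1, the mitochondrial citrate carrier that feeds Acly, rose by 1.05 ± 0.05 at 6 h and 1.61 ± 0.05 at 10 h, and Elovl1, an elongase of very long fatty acids, by 1.55 ± 0.05 and 1.61 ± 0.05. In CALM/AF10 cells 2 rose and 2 fell at 6 h, near the 5.44% and 7.14% of all genes, and 7 rose and 2 fell at 10 h, against 10.5% and 8.64%. The tested genes differ between the cell types, as Me1 passed the filter only in GMP and Elovl7 only in CALM/AF10 cells. Elovl7 passed it through the 0 h samples alone (2.86 to 3.17 TPM, and at most 0.994 TPM in treated samples). Any fall of Elovl7 in CALM/AF10 cells is not taken as support. Elovl5, an elongase of polyunsaturated fatty acids, fell there by 0.51 ± 0.07 at 6 h (adjusted p = 0.00172) and rose by 0.58 ± 0.07 from 6 h to 10 h (adjusted p = 0.00729), a course like that of Fads2. Acsl3, an acyl-CoA synthetase, fell by 0.23 ± 0.07 at 10 h in CALM/AF10 cells (adjusted p = 0.0427).

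Splice junctions in 3 of the 33 genes are listed as changed in CALM/AF10 cells at 10 h in the authors' deposited table. The share of all genes with a listed junction is not given here, so this count is not read as high or low. The authors' deposited table for that comparison lists 689 junctions, of which 4 lie in Elovl6, Mvd and Fasn, and all 4 are already annotated and classed there as intron skipping. In the authors' deposited table the Elovl6 junction at chr3:129532495-129532647 (mm10, plus strand), just downstream of the start shown above, went from 62 to 94 percent spliced in, with a log2 ratio of 3.26 and q = 4.46e-07 on a mean of 23 and 66 reads. The authors' deposited table gives the Mvd junctions at chr8:122437489-122437826 and chr8:122437228-122437414 (minus strand) at 70 and 81 percent (q = 5.57e-08) and at 82 and 91 percent (q = 2.19e-08). The Fasn junction at chr11:120815790-120815881 (minus strand) went from 96 to 98 percent (q = 0.00294) in the authors' deposited table. All 3 genes are among the 15 that had risen at 10 h, and the part of their higher level in these listings was not tested. The authors' deposited tables for CALM/AF10 cells at 6 h and for GMP at 6 h and 10 h list 486, 291 and 400 junctions, none of them in the 33 genes.

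The 4 AML lines were compared by edgeR's quasi-likelihood test on estimated counts, with levels in CPM, which are counts scaled by TMM library size and not by length. The MLL/AF9 lines differed in most sterol genes: line 2 was lower than line 1 for 19 of the 33 genes and higher for 3, where 29.7% and 29.3% of the 15313 genes tested were lower and higher, 59% in all. Of the 18 sterol steps 13 were lower and 1 higher, and of the 9 fatty acid steps 3 were lower and 2 higher, with a median of -0.66 and -0.13 beside 0.05 for all genes. Ebp was at 46.4, 43.9 and 42.0 CPM in line 1 and at 15.4, 15.9 and 14.6 CPM in line 2 (-1.52 ± 0.11, adjusted p = 1.31e-09). Hmgcs1 was at 24.8, 29.6 and 26.7 CPM against 11.02, 9.84 and 9.81 CPM (-1.40 ± 0.19, adjusted p = 3.86e-06). Scd2 was at 155, 159 and 159 CPM against 69.5, 64.8 and 47.8 CPM (-1.37 ± 0.10, adjusted p = 9.77e-10). The groups did not overlap for these genes. Srebf2 was lower in line 2 by 0.46 ± 0.07 (adjusted p = 3.77e-05), Idi1 by 1.10 ± 0.14 and Fdps by 1.34 ± 0.12. Of the 22 genes, 15 passed in all 11 alternatives. Without 1 sample the calls of Cyp51 (adjusted p = 0.117, 0.0916, 0.154 and 0.159 without line 1 samples 1 and 3 and line 2 samples 2 and 3), Pmvk (0.0561 without line 1 sample 1) and Hsd17b7 (0.0575 to 0.147, without any 1 of the 6) were lost.

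Acaca was higher in MLL/AF9 line 2, at 112, 119 and 106 CPM against 76.2, 73.2 and 74.1 CPM (0.59 ± 0.08, adjusted p = 6.00e-06), as was Scd1 at 5.58, 4.78 and 2.75 CPM against 1.74, 0.892 and 0.685 CPM (1.99 ± 0.49, adjusted p = 0.00187). Markers of other cells also differed between these lines. The summed TPM of 7 macrophage markers was 251.9 to 266.3 in line 2 (7 of 7 at a mean of 1 TPM or more) and 38.53 to 44.29 in line 1 (5 of 7), that of 7 stromal markers 152.3 to 159.2 (6 of 7) and 23.78 to 24.49 (3 of 7, with Lum below 0.1 TPM), and that of 7 adipocyte markers 73.66 to 93.0 (5 of 7, Lep below 0.1) and 14.11 to 22.64 (3 of 7, Cidec and Lep below 0.1). Their part in the differences was not tested.

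The CALM/AF10 lines differed in 8 of the 33 genes, where 28.3% of genes tested differed. Line 2 was higher than line 1 for Fasn (0.42 ± 0.08), Fdps (0.40 ± 0.13), Acly (0.36 ± 0.07), Srebf1 (0.28 ± 0.09) and Srebf2 (0.28 ± 0.07), and lower for Fads1 (-0.72 ± 0.22), Lss (-0.51 ± 0.18) and Acaca (-0.43 ± 0.08). Acly was the only 1 of the 8 that passed in all 11 alternatives. Leaving out 1 sample ended the call of Fdps (adjusted p = 0.0587 without line 1 sample 1), of Srebf1 (0.0624 without line 2 sample 2), of Fads1 (0.0945, 0.0999, 0.0650 and 0.142 without line 1 samples 2 and 3 and line 2 samples 2 and 3) and of Lss (0.112, 0.361, 0.183, 0.0807 and 0.149 without line 1 samples 2 and 3 and line 2 samples 1, 2 and 3). A share of each gene's reads was assigned to transcripts annotated as other than protein-coding, with a median of 6.54% over the 33 genes and a highest value of 86.5% for Lss, and 69.9% for Sqle and 60.6% for Ebp. With protein-coding transcripts only, an alternative chosen after seeing the data, 2 of the 33 genes differed between the CALM/AF10 lines, Acly at 0.30 (adjusted p = 0.0192) and Fads1 at -0.78 (adjusted p = 0.0372). Between the MLL/AF9 lines Sqle then went from 0.11 ± 0.17 (adjusted p = 0.583) to -1.99 (adjusted p = 0.00143). Of the 22 calls between these lines, those of Lss (0.06, adjusted p = 0.976), Acat2, Pmvk, Cyp51, Hsd17b7, Stard4 and Fasn (adjusted p = 0.0721 to 0.319) were lost with these transcripts, and 17 genes passed, 14 lower and 3 higher. The share of all genes called with protein-coding transcripts only is not given here. The counts of 2 and 17 are therefore not set against those of the main fit. The summed TPM of 7 erythroid markers was 939.6 to 1204 in CALM/AF10 line 1 and 124.9 to 131.7 in line 2. Its part in the differences between these lines was not tested.

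Taking each line as 1 replicate, 2 against 2, none of the 33 genes differed between the MLL/AF9 and the CALM/AF10 lines at an adjusted p under 0.05 in edgeR, where 3.07% of genes tested did, 2.14% lower and 0.934% higher. At an unadjusted p under 0.05 there were 2, Fasn and Dhcr7, both higher in the MLL/AF9 lines, and DESeq2 called 1 gene, Fasn. Fasn was at 256, 258 and 245 CPM and 195, 196 and 181 CPM in MLL/AF9 lines 1 and 2, and at 81.0, 73.2 and 85.6 CPM and 96.7, 101 and 122 CPM in CALM/AF10 lines 1 and 2. All 6 MLL/AF9 values were above all 6 CALM/AF10 values, with a difference of 1.23 ± 0.35 over the lines (adjusted p = 0.147, 0.0196 in DESeq2, and 0.0214 without MLL/AF9 line 2, a fit of 1 line against 2 in which the lone line is assumed to vary like the others). Fads2, which was at 55.3 TPM in untreated cells of the CALM/AF10 time course, had means of 0.648 to 2.02 CPM in the 4 lines. Scd2 was at 127.6 TPM in the same untreated cells and had line means of 60.7 to 157.7 CPM. Beside Scd2, Fads2 was thus listed far lower in the lines than in the time-course cells. CPM is not per length, and the exon bases of Fads2 and Scd2 are 3295 and 5464. The difference was not tested.

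**Figure D4:**
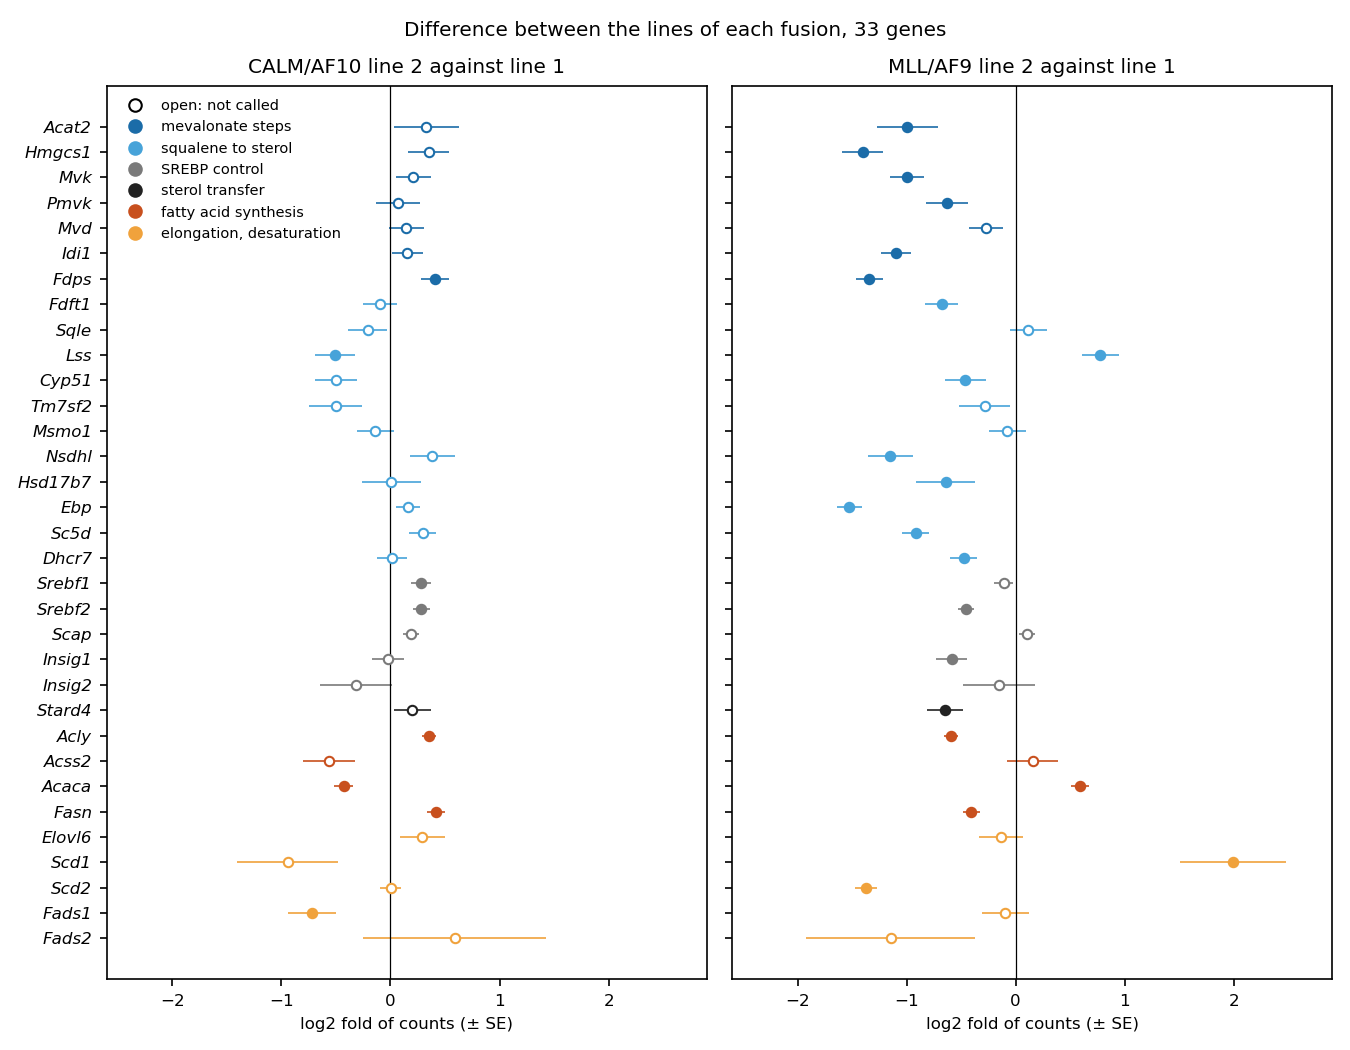
Log2 fold of counts (± SE) in line 2 against line 1 for each of the 33 genes, ordered and coloured by role, with the CALM/AF10 lines on the left and the MLL/AF9 lines on the right; filled marks passed the test. On the right most sterol steps lie below 0, down to -1.52 for Ebp, and Lss, Acaca and Scd1 are the filled marks above 0, that of Lss lost with protein-coding transcripts only; on the left all filled marks lie between -0.72 and 0.42.

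Some values are uncertain because of overlapping or similar genes. In GENCODE M21, 26.7% of the exon bases of Fdps overlap Gm43738 on the same strand and 12.1% of those of Tm7sf2 overlap Vps51, and on the opposite strand 18.3% of Fdft1 overlap Ctsb and 13.2% of Scap overlap 5830462I19Rik. Whether strand was used in counting is not given in the sources used here, so reads of such pairs cannot be told apart. Acat2 and Acat3, Idi1 and Idi2, and the Scd genes are near-identical in parts, and the authors' assignment could split reads between them.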

How the data were processed

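RNA was sequenced from 18 time-course samples and 12 AML line samples, grouped by their labels. The kit was the Ovation Mouse RNA-Seq System, used on total RNA per the labels' protocols, and STAR and mm10 are named without version or role in the submitters' processing notes. The time-course tables hold TPM per gene, deposited by the authors, so their depth is unknown. The line tables hold estimated counts per transcript (with TPM), as the authors deposited them. The authors' deposited junction tables give percent spliced in, a log2 ratio, a q-value and a score, the group mean of raw junction reads, for their own comparisons.

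For the time courses log2(TPM + 1) was fitted with limma 3.58.1 (trend; filter TPM of 1 or more in 3 samples), 1 fit covering the 0, 6 and 10 h samples of a cell type and another all 18 samples for the difference. For the lines 98294 of 99567 transcripts were assigned to genes of GENCODE M21, estimated counts were summed per gene and rounded, and edgeR 4.0.16's quasi-likelihood test was run after TMM scaling. Between fusions, counts were summed per line. Of the reads in the line libraries, 0.709% to 1.12% were not assigned. P-values were adjusted over all genes tested (Benjamini-Hochberg, 0.05), and both fits were tested on simulated data. DESeq2 1.42.0, other pseudocounts, filters and scalings, and fits without single samples were the alternatives. The members and lists were chosen with earlier results of these data known. Every one of the 33 genes was named or accounted for by role, 11 were given sample by sample with any gene that left its group, and of the further lists called genes with the smallest adjusted p and a mean of 5 TPM or more were named. Elovl5 and Acsl3 were singled out after their values were seen where the rule did not reach them. Of the further lists, 2 genes are not reported here and are not in the counts.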

Additional observations from a re-analysis of the deposited data

Results flagged for a closer look

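The results below are those in which the change from 0 h differed between CALM/AF10 cells and GMP by a test of the difference itself (limma, log2 change in CALM/AF10 cells minus that in GMP, adjusted over all genes). At 6 h 31 of the 33 genes differed and at 10 h 31 did, all in the direction of a smaller change in CALM/AF10 cells. The difference at 6 h and at 10 h was -1.15 and -1.16 for Srebf2, -0.67 and -0.34 for Srebf1, and -2.13 and -1.66 for Insig1. Among the sterol steps it was -1.99 and -2.32 for Hmgcs1, -3.004 and -3.57 for Idi1, and -2.67 and -2.55 for Sqle, and for Stard4 it was -2.14 and -2.27. Among the fatty acid steps it was -2.27 and -1.91 for Fasn, -1.12 and -1.78 for Scd1, and -1.42 and -1.32 for Scd2. Acss2 differed at 10 h, by -0.80. Untreated levels of most of these genes were listed lower in GMP, and the part of that starting level in the differences was not tested.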

How the results depend on the processing

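In GMP 30 of 31 calls at 6 h and 29 of 32 at 10 h, and of the differences between cell types 29 of 31 at 6 h and 28 of 31 at 10 h, held under every alternative run. In the fit limited to a mean TPM of 5 or more Scd1 and Acss2 were not tested, nor, for the differences, Hsd17b7; their calls held in the other alternatives except that of Acss2 in GMP at 10 h, which was lost, as was that of Scap. The other counts varied. From 6 h to 10 h 11 genes passed in GMP with no filter on low values, and 8 in CALM/AF10 cells in a fit of only the groups compared. Between the fusions 1 gene passed with DESeq2 and 1 with limma on log2(TPM + 1), Fasn in both. With protein-coding transcripts only, chosen after seeing the data, 2 genes passed between the CALM/AF10 lines. Lss was at 0.52 there, not past the threshold (edgeR, adjusted p = 0.822). Sqle turned to -1.99 between the MLL/AF9 lines (edgeR, adjusted p = 0.00143). The cause was not tested. Leaving out 1 sample gave 1 to 5 calls in CALM/AF10 cells at 6 h, 12 to 16 at 10 h and 2 to 14 from 6 h to 10 h. In GMP it gave 31 at 6 h in each fit, 30 to 32 at 10 h and 9 to 18 from 6 h to 10 h. For the difference between cell types it gave 31 at 6 h in each fit and 31 to 32 at 10 h, for the CALM/AF10 lines 6 to 9, and for the MLL/AF9 lines 19 to 21. Leaving out 1 line gave 0 to 3 between fusions, with 3 without MLL/AF9 line 1 and 2 without MLL/AF9 line 2; each of these fits has a lone line in 1 arm, assumed to vary like the others. With the replicate number of the lines as a block 7 and 21 genes passed in the CALM/AF10 and MLL/AF9 lines; same-numbered samples correlated at 0.0029 to 0.0421, so the numbers were not taken to pair them. No paired analysis was possible for the time courses because their columns carry no replicate number. The depth of the time-course libraries is unknown, which limits what can be said of low genes such as Acss2, Scd1 and Insig2.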
